A study of Mus musculus with 14 samples.

Results

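The genes described here are the axon guidance ligands and receptors of the mouse that were read out in fibro-adipogenic progenitors (FAPs), the mesenchymal stromal cells that lie between muscle fibres. They were chosen by gene symbol alone, as the members of 9 families: class 3 to 7 semaphorins, plexins, neuropilins, Slits, Robos, netrins, Unc5 receptors, ephrins and Eph receptors. In the table made after BaCl2 injury 67 of 56953 listed genes matched, 35 ligands and 32 receptors. In the table made after glycerol injury 61 of 14330 listed genes matched, and Robo3, Ntn5, Unc5d, Epha6, Epha8 and Epha10 were not in it. A member was counted as well expressed at a mean of at least 1 per M counts (M, mega), or 1 CPM, over all libraries of a table. By that level 53 members were well expressed after BaCl2 and 53 after glycerol, and they were the same 53 genes.

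The mice carried the label SMA, taken to mean spinal muscular atrophy, or were wild type (WT), and the labels give neither the allele, the age nor the sex. FAPs were taken from the tibialis anterior (TA) muscle on day 3 after injury by magnetic sorting (MACS) with antibodies that no label names, and RNA was extracted from the fresh cells. The groups were SMA after BaCl2 and WT after BaCl2 with 3 libraries each, and SMA after glycerol and WT after glycerol with 4 libraries each. BaCl2 kills muscle fibres, and glycerol injury is followed by more fat. No uninjured muscle was analysed here. The labels do not say that libraries came from separate animals, so p-values measure the spread between these libraries, which may be technical.

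Guidance genes were first described in growing axons, where a ligand on or from a neighbouring cell repels or attracts the growth cone. Semaphorins act through plexins, and the secreted class 3 semaphorins mostly need a neuropilin as co-receptor. Slits bind Robos, netrins bind Dcc and Unc5 receptors, and membrane-bound ephrins bind Eph receptors on the cell that touches them. Outside the nervous system the same families act in blood vessel growth, immune cells and the sorting of cells at tissue borders, and in muscle they are known for terminal Schwann cells, motor axons and the neuromuscular junction.

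Promoter sequence is shown for 4 members that the results turn on. In SMA libraries 2 passed as higher, Sema4d after both injuries and Plxnc1 after BaCl2 only. The other 2 passed as lower, Epha3 after glycerol only and Efnb1 after BaCl2 only. Each sequence is the 200 bases before a RefSeq transcription start of build GRCm38.p6, read 5′ to 3′ on the gene's own strand. The dinucleotide CG (the same on both strands) is in capitals. The windows are chr13:51739447-51739646 on the minus strand for Sema4d, chr10:94944846-94945045 on the minus strand for Plxnc1, chr16:63864176-63864375 on the minus strand for Epha3 and chrX:99135861-99136060 on the plus strand for Efnb1. None of the 4 overlaps an exon of GENCODE vM21, and the Sema4d window is for 1 of 3 starts listed.
Sema4d: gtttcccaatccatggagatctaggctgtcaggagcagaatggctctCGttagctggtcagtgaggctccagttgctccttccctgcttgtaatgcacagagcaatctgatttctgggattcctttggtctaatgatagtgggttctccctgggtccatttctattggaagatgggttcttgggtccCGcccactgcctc
Plxnc1: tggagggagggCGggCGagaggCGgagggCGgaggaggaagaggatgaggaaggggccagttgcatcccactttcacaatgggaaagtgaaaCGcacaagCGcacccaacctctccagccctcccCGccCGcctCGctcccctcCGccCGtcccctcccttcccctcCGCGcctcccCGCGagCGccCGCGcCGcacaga
Epha3: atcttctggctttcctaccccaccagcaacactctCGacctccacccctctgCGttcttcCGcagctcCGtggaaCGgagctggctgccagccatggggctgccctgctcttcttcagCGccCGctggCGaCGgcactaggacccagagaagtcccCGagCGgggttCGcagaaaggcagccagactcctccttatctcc
Efnb1: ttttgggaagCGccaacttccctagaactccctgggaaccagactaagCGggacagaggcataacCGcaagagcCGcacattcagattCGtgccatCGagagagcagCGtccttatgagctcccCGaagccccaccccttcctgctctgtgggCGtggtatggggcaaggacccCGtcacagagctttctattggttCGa

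The Sema4d window held 2 CG dinucleotides, against 19 in that of Plxnc1, 12 in that of Epha3 and 11 in that of Efnb1. Over 32851 RefSeq windows of the same length the median was 5, the lowest decile was 0, the highest decile was 21, 89.4% held at least 1, and 34.4% held 2 or fewer. A window poor or rich in CG describes these letters alone. RefSeq windows were found for 58 of the 67 members.

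Some facts of the libraries touch what follows. After BaCl2 a library held between 97.7 M and 136 M counts, and the normalized glycerol values summed to 71.4 M to 76.6 M a library. Smn1, the gene lost in spinal muscular atrophy, lay at 10.2 to 12.5 per M counts in SMA libraries against 14.9 to 16.4 per M counts in WT libraries after BaCl2, and at 640 to 806 normalized counts in SMA libraries against 935 to 1210 in WT libraries after glycerol. Its log2 difference was -0.54 in both tables (edgeR adjusted p = 0.0131 and limma adjusted p = 0.0364). FAP markers were high in every library. Macrophage and monocyte markers were present in every library and their sum was higher in SMA libraries, except that SMA library 3 after glycerol lay within the WT range, and the summed endothelial markers lay lower in SMA libraries after glycerol. In such bulk RNA, fewer cells of a type and less RNA per cell cannot be told apart.

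FAP libraries held members of all 9 families, led by a few genes. Compared per kilobase of exon, the highest members after BaCl2 were Slit3 (61.9 ± 7.61 CPM per kilobase, SD over 6 libraries), Plxnb2 (59.3 ± 1.80), Sema7a (44.2 ± 8.77), Plxnd1 (34.9 ± 2.34) and Nrp1 (22.8 ± 2.06). Slit3 is a secreted Slit, Plxnb2 a receptor for class 4 semaphorins, Sema7a a lipid-anchored semaphorin that binds Plxnc1 and integrins, Plxnd1 a vascular semaphorin receptor and Nrp1 a co-receptor shared by class 3 semaphorins and vascular growth factors. The libraries of Slit3 and Plxnb2 overlapped, as did those of Sema7a and Plxnd1, while Plxnd1 and Nrp1 stood apart. Plxna1 (16.5 CPM per kilobase), Efnb1 (16.1), Nrp2 (16.0), Epha3 (13.1) and Sema4c (12.2) came next and overlapped each with its neighbour. The 5 highest members held 52.3% of the level per kilobase summed over all members, and the 10 highest held 69.6%.

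After glycerol the order was close to that. Plxnb2 (53.1 ± 2.17 per M and kilobase, SD over 8 libraries) and Slit3 (45.8 ± 6.97) overlapped at the top, followed by Plxnd1 (27.6 ± 1.60), Nrp1 (21.5 ± 0.928) and Sema7a (20.9 ± 4.23). The first 5 held 45.6% and the first 10 held 66.5% of the summed level, and 8 genes were in the first 10 of both tables. The tables were normalized separately, so levels are not compared across them.

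**Figure D1:**
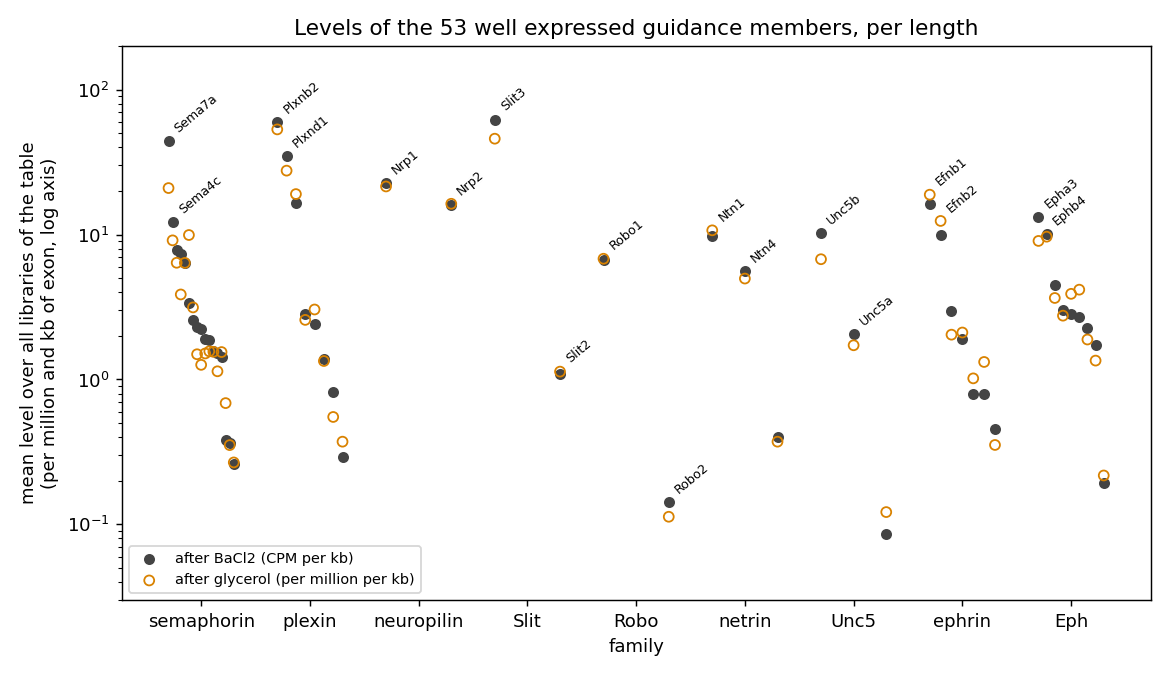
Mean level of each of the 53 well expressed members over all libraries of a table, per M counts and kilobase of exon on a log axis, by family, with filled points after BaCl2 and open points after glycerol; the 2 highest members of a family after BaCl2 are named. Slit3 and Plxnb2 lie at the top in both tables, and Robo2 is among the lowest.

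Among semaphorins 17 of 20 were well expressed, among plexins 8 of 9, among ephrins 7 of 8 and among Eph receptors 9 of 14. Both neuropilins, 2 of 3 Slits, 2 of 3 Robos, 3 of 4 netrins and 3 of 4 Unc5 receptors were well expressed. Epha6 was at 0 in every BaCl2 library, and Epha10, Epha5, Epha8, Robo3, Ntn5 and Unc5d had means under 0.1 CPM over all BaCl2 libraries. The Slit receptor Robo1 averaged 99.8 ± 12.7 CPM in SMA and 120 ± 6.95 CPM in WT FAPs (SD, n = 3 each) after BaCl2, while Robo2 averaged 2.06 ± 0.397 CPM in SMA and 2.80 ± 0.438 CPM in WT FAPs.

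After BaCl2, 6 members passed the test between SMA and WT (edgeR quasi-likelihood test, Benjamini-Hochberg adjusted p under 0.05 over all genes tested). Sema4d, Plxnc1 and Plxnb3 rose in SMA libraries, and Epha4, Efnb1 and Ephb3 fell. Of 61 members tested 3 were higher, against 2.73% of all 20119 genes tested, and 3 were lower, against 1.56% of them. The share of all genes called in either direction was 4.29%. The other 55 members did not pass, and 21 members had an unadjusted p under 0.05, beside 19.3% of all genes. The median log2 fold change of the members was -0.09, beside -0.003 for all genes tested.

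Sema4d, a membrane semaphorin that binds Plxnb1 and Plxnb2 and is also known from immune cells, had 23.1, 26.4 and 25.3 CPM in SMA libraries against 15.1, 12.7 and 15.0 CPM in WT libraries. Every SMA library lay above every WT library. The difference was 0.80 ± 0.09 on the log2 scale (SE; edgeR adjusted p = 0.00376). It passed with each of the 6 libraries left out in turn, with an adjusted p of at most 0.0456.

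Plxnc1, the plexin that binds Sema7a, had 22.2, 22.8 and 23.4 CPM in SMA libraries against 17.9, 18.0 and 17.6 CPM in WT libraries. The groups did not overlap, and the log2 difference was 0.36 ± 0.06 (SE; edgeR adjusted p = 0.0171). Plxnb3, a receptor of Sema5a that is known from oligodendrocytes, was not well expressed, with 1.30, 0.891 and 0.951 CPM in SMA libraries against 0.271, 0.337 and 0.551 CPM in WT libraries, again without overlap. Its log2 difference was 1.43 ± 0.32 (SE; edgeR adjusted p = 0.0349).

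Epha4, an Eph receptor that binds both ephrin classes, fell furthest of the members that passed. It had 14.3, 19.2 and 19.0 CPM in SMA libraries against 26.9, 30.6 and 36.2 CPM in WT libraries, with a log2 difference of -0.83 ± 0.13 (SE; edgeR adjusted p = 0.0107). Efnb1, a transmembrane ephrin encoded on the X chromosome, had 44.5, 45.0 and 51.8 CPM in SMA libraries against 62.8, 62.4 and 67.5 CPM in WT libraries, a log2 difference of -0.45 ± 0.07 (SE; edgeR adjusted p = 0.0122). Ephb3, a receptor for B-class ephrins, had 14.1, 17.9 and 17.0 CPM in SMA libraries against 21.1, 21.3 and 21.5 CPM in WT libraries, a log2 difference of -0.38 ± 0.09 (SE; edgeR adjusted p = 0.0451). In all 3 of these genes the SMA libraries lay below all WT libraries.

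Which members passed depended on single libraries. The number was 4 with SMA library 1 left out, 2 (Sema4d and Epha4) with SMA library 2 left out and 11 with SMA library 3 left out. It was 5 in the fit that left out WT library 1, and 1 (Sema4d) in those that left out WT library 2 or 3. The count over all genes moved too, from 863 to 559, 145 and 1577 with SMA library 1, 2 or 3 left out in turn. It was 163 without WT library 2 and 41 without WT library 3. By the authors' deposited table, 8 of 49 members with an adjusted p had one under 0.05 after BaCl2. Of these, 3 were higher (Sema4d, Plxnc1, Sema6b) and 5 were lower (Efnb1, Epha3, Epha4, Ephb3, Unc5b). The share of all genes so called by the authors is not given here.

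Macrophage and monocyte markers stood beside the members that rose. After BaCl2 11 of 12 such markers were called higher in SMA libraries (edgeR), none was at 0, and their sum was 2891, 2311 and 1873 CPM in SMA libraries against 1453, 1054 and 1130 CPM in WT libraries. The part of these cells in the levels of Sema4d and Plxnc1 was not tested. Within the 3 SMA libraries Sema4d was lowest in library 1, where the marker sum was highest, and the lowest SMA sum (1873 CPM) was above every WT library. Most of the sum was Lyz2, at 1219 ± 252 CPM over SMA and 634 ± 107 CPM over WT libraries (SD, n = 3 each). Single markers were spread differently. Mrc1 averaged 206.2 ± 101.5 CPM over SMA and 92.5 ± 22.2 CPM over WT libraries, and Fcgr1 33.1 ± 1.27 CPM and 17.7 ± 2.20 CPM. The order of the sum thus need not be that of each marker. Neutrophil markers summed to 33.1, 25.3 and 17.3 CPM in SMA libraries against 11.3, 7.66 and 10.4 CPM in WT libraries, with 2 of the 4 tested (Csf3r, Trem1) called higher, and Ly6g was at 0 in 5 and Retnlg in 3 of the 6 libraries. Their part was not tested. Schwann cell markers also stood beside Plxnb3: 4 of 8 were called higher, and none was at 0 in a library. Of the 8 genes 6 had a positive log2 fold change, while Cdh19 (-0.14) and S100b (-0.22) were negative and did not pass. The sum of all 8 was 39.5 to 44.4 CPM in SMA libraries against 24.7 to 30.3 CPM in WT libraries, and its part was not tested.

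FAP markers stood beside the members that fell. Of 8 markers 3 (Ly6a, Lum, Vcam1) were called lower after BaCl2 (edgeR), and none was at 0. The sum of all 8 was 20890 to 29340 CPM in SMA libraries against 31440 to 34990 CPM in WT libraries. Most of it was Col1a1, which averaged 20790 CPM over SMA libraries against 29120 CPM over WT libraries and did not pass (edgeR adjusted p = 0.0606). Of the 8 genes 7 had a negative log2 fold change, with a median of -0.28 over all 8. Pdgfra (-0.04) and Cd34 (-0.07) were near level, and Pi16 was positive (0.45). The sum of 7 pericyte and smooth muscle markers was 744.6 to 915.5 CPM in SMA libraries against 925.4 to 984.5 CPM in WT libraries, and none was at 0. Most of that sum was Pdgfrb, which averaged 529.9 CPM over SMA libraries against 658.5 CPM over WT libraries, and the list did not move as one. Of its 7 genes 5 had a positive log2 fold change, with a median of 0.28, Rgs5 was called higher and Acta2 was called lower. Neither list's part in the fall of Epha4, Efnb1 and Ephb3 was tested.

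**Figure D2:**
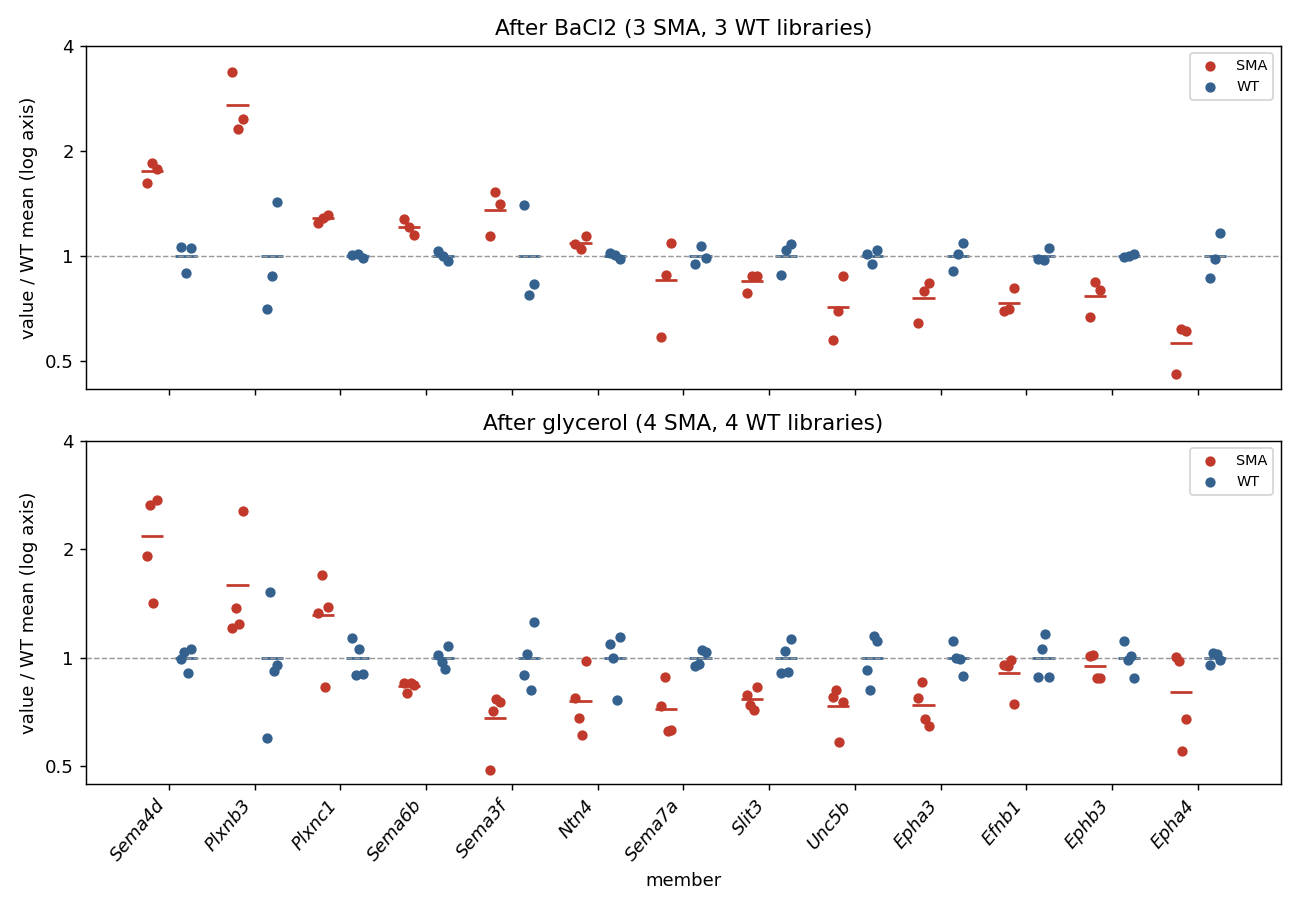
Value of each library divided by the WT mean of its table, on a log axis, for the 13 members that passed a test or whose groups stood apart in the same direction after both injuries; points are libraries and bars are group means, above after BaCl2 (CPM) and below after glycerol (normalized counts). Sema4d lies above the WT libraries in every SMA library of both panels, and Slit3, Unc5b and Epha3 lie below.

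After glycerol 4 members passed (limma, adjusted p under 0.05 over all genes). Sema4d rose again, and Slit3, Sema7a and Epha3 fell. Of 61 members tested 1 was higher, against 1.70% of all 14330 genes tested, and 3 were lower, against 1.17% of them. In either direction 2.87% of all genes were called. The other 57 members did not pass, and 14 members had an unadjusted p under 0.05, beside 23.3% of all genes. The median log2 fold change of the members was -0.06, beside -2.03e-05 for all genes.

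Sema4d had 2129, 2949, 1581 and 3045 normalized counts in SMA libraries against 1105, 1154, 1012 and 1180 in WT libraries. The groups did not overlap, and SMA library 3 came nearest to WT. On the log2(value + 1) scale the difference was 1.08 ± 0.19 (SE; limma adjusted p = 0.0317). The sum of the 12 macrophage and monocyte markers followed the same order among SMA libraries, with 208000, 240400, 115100 and 284000 normalized counts in SMA libraries against 128800, 101700, 112300 and 132400 in WT libraries. Of these markers 4 of 12 were called higher (limma), all 12 had a positive log2 fold change and none was at 0. The largest part of the sum was Lyz2, which averaged 96580 normalized counts in SMA and 59170 in WT libraries and did not pass (limma adjusted p = 0.171). Among the 4 called markers, Ccr2 averaged 2747 ± 619 in SMA and 1217 ± 120 in WT libraries (SD, n = 4 each). The sum need not follow single markers, whose levels in SMA library 3 are not given here. In SMA library 3 the marker sum lay within the WT range while Sema4d was above every WT library. The sum of the 4 neutrophil markers in the table was also above every WT library there, at 1177, 1476, 1037 and 1655 normalized counts in SMA libraries against 698.7, 478.3, 566.9 and 955.4 in WT libraries. Most of that sum was Csf3r, which averaged 1069 normalized counts in SMA and 457.1 in WT libraries. Trem1 averaged 129.9 in SMA and 92.3 in WT libraries, S100a8 63.0 and 59.5, and S100a9 74.2 and 66.0. Of these markers 1 of 4, Csf3r, was called higher (limma), none was at 0, and their part in the level of Sema4d was not tested.

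Plxnc1 had 2146, 2726, 1334 and 2221 normalized counts in SMA libraries against 1827, 1444, 1702 and 1450 in WT libraries. SMA library 3 was the lowest of all 8, and the difference of 0.35 ± 0.19 on the log2(value + 1) scale (SE) did not pass (limma adjusted p = 0.305). Without SMA library 3 it passed (limma adjusted p = 0.0181).

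**Figure D3:**
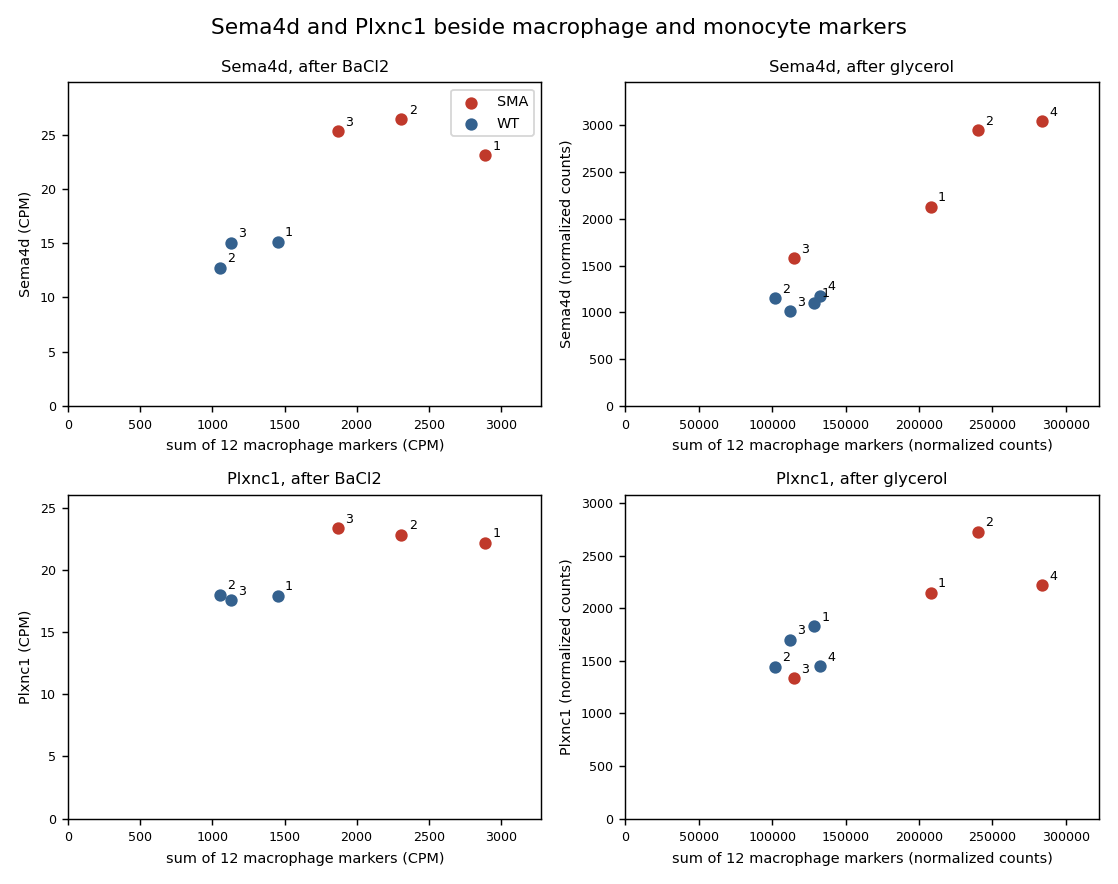
Level of Sema4d (upper row) and Plxnc1 (lower row) against the sum of 12 macrophage and monocyte markers in each library, after BaCl2 in CPM (left) and after glycerol in normalized counts (right), with library numbers beside the points. After glycerol SMA library 3, with a marker sum of 115100, lies at 1581 for Sema4d, above all WT libraries, and at 1334 for Plxnc1, below all of them. The largest part of the sum is Lyz2, so the sum need not follow single markers.

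Slit3, the highest Slit, had 18210, 17020, 16490 and 19130 normalized counts in SMA libraries against 21000, 24050, 21140 and 26040 in WT libraries. Its log2 difference was -0.38 ± 0.08 (SE; limma adjusted p = 0.0444). Epha3, an A-class Eph receptor, had 5105, 5644, 4477 and 4278 normalized counts in SMA libraries against 7338, 6612, 6575 and 5882 in WT libraries, a log2 difference of -0.44 ± 0.10 (SE; limma adjusted p = 0.0487). Sema7a had 4330, 5206, 3674 and 3707 normalized counts in SMA libraries against 5565, 5635, 6191 and 6088 in WT libraries, a log2 difference of -0.49 ± 0.11 (SE; limma adjusted p = 0.0487). In all 3 genes the SMA libraries all lay below the WT libraries.

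These glycerol calls were close to the threshold. No member passed with SMA library 1, 2 or 4 or any of the 4 WT libraries left out, where the count over all genes also fell to between 0 and 82. Without SMA library 3, 7 of 61 members and 1645 of 14330 genes passed. The members were Sema4d and Plxnc1, which were higher, and Slit3, Sema7a, Epha3, Sema6a and Unc5a, which were lower. Without SMA libraries 3 and 4 together, an alternative added after seeing the data, Sema4d and Plxnc1 passed. With limma fitted without its mean-variance trend 2 genes and no member passed. By the authors' deposited table, 9 of 60 members with an adjusted p had one under 0.05. Sema4d was higher, and Slit3, Sema7a, Epha3, Sema3f, Sema6a, Sema6b, Unc5a and Unc5b were lower. The share of all genes so called by the authors is not given here.

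Endothelial and pericyte markers stood beside the members that fell after glycerol. The sum of 8 endothelial markers was 7360 to 9569 normalized counts in SMA libraries against 12110 to 17840 in WT libraries, with 2 of 8 called lower (limma). The sum of 7 pericyte and smooth muscle markers was 36280 to 43900 in SMA libraries against 48020 to 53030 in WT libraries, with 1 of 7 called lower. No marker of either list was at 0, and their part in the levels of Slit3, Sema7a and Epha3 was not tested. The FAP marker sum overlapped, at 1619000 to 1991000 normalized counts in SMA libraries against 1637000 to 2245000 in WT libraries, and 0 of 8 FAP markers passed (limma; 0 with an unadjusted p under 0.05).

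Across both injuries, 4 of 60 members tested in both tables had SMA libraries wholly on the same side of all WT libraries, against 3.64% of all 13960 genes. Sema4d was on the higher side, and Slit3, Unc5b and Epha3 were on the lower side. Within single tables, 9 of 61 members stood apart on the higher side and 10 on the lower side after BaCl2, against 12.2% and 13.1% of all genes. After glycerol 2 of 61 did so on the higher side and 9 on the lower side, against 6.59% and 7.54% of all genes.

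After BaCl2, Slit3 had 318, 357 and 357 CPM in SMA libraries against 358, 424 and 439 CPM in WT libraries, and did not pass (log2 difference -0.24 ± 0.08, SE; edgeR adjusted p = 0.145). Epha3 had 83.3, 103 and 108 CPM in SMA libraries against 117, 132 and 141 CPM in WT libraries, and lay just beyond the threshold (log2 difference -0.40 ± 0.10, SE; edgeR adjusted p = 0.0549). For these genes the lowest SMA value was in library 1, which was also the lowest of the SMA libraries in the FAP marker sum, most of it Col1a1. Sema7a overlapped after BaCl2, with 92.1, 138 and 171 CPM in SMA libraries against 149, 168 and 155 CPM in WT libraries.

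Unc5b, a netrin receptor known from endothelial cells, had 42.8, 51.8 and 65.5 CPM in SMA libraries against 75.7, 71.1 and 77.8 CPM in WT libraries. After glycerol it had 2790, 2905, 2090 and 2700 normalized counts in SMA libraries against 3298, 2918, 4099 and 3968 in WT libraries. The groups did not overlap in either table, although after glycerol the highest SMA library (2905) and the lowest WT library (2918) lay close. Neither test passed, with a log2 difference of -0.49 ± 0.13 in the BaCl2 table (SE; edgeR adjusted p = 0.0605) and of -0.44 ± 0.13 in the glycerol table (SE; limma adjusted p = 0.0970).

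Summed by family, receptors of the Eph and Unc5 families and the Slits lay lower in every SMA library than in every WT library of the same injury. Eph receptors summed to 228.1 to 284.4 CPM in SMA libraries against 293.4 to 339.3 CPM in WT libraries after BaCl2, and to 15850 to 18370 normalized counts in SMA libraries against 19160 to 20150 in WT libraries after glycerol. Unc5 receptors summed to 52.0 to 75.7 CPM in SMA libraries against 82.0 to 89.7 CPM in WT libraries, and to 2685 to 3605 normalized counts in SMA libraries against 3675 to 4844 in WT libraries. Slits summed to 347.4 to 383.0 CPM in SMA libraries against 385.3 to 472.2 CPM in WT libraries, and to 18760 to 21120 normalized counts in SMA libraries against 23280 to 28680 in WT libraries. These sums were not tested. The highest member of the Eph receptors was Epha3, that of the Unc5 receptors Unc5b and that of the Slits Slit3. Unc5b and Slit3 made up most of their sums, with means of 64.1 and 375.5 CPM over all BaCl2 libraries, so these sums mainly repeat those genes. Slit2 and Unc5c overlapped after both injuries. Unc5a overlapped after BaCl2 and was lower in all SMA libraries after glycerol. Among Eph receptors only Epha3 stood apart after both injuries. Its mean was 98.2 CPM (SMA) against 130 CPM (WT) after BaCl2. After glycerol it was 4876 against 6602 normalized counts. Epha4 had means of 17.5 CPM (SMA) against 31.2 CPM (WT) after BaCl2. Epha1, Epha2, Epha7 and Ephb6 overlapped after both injuries, so the Eph sum does not show a fall of the whole family. Sums of the remaining families did not stand apart in the same direction after both injuries. No share over other sets of genes was computed for such sums.

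**Figure D4:**
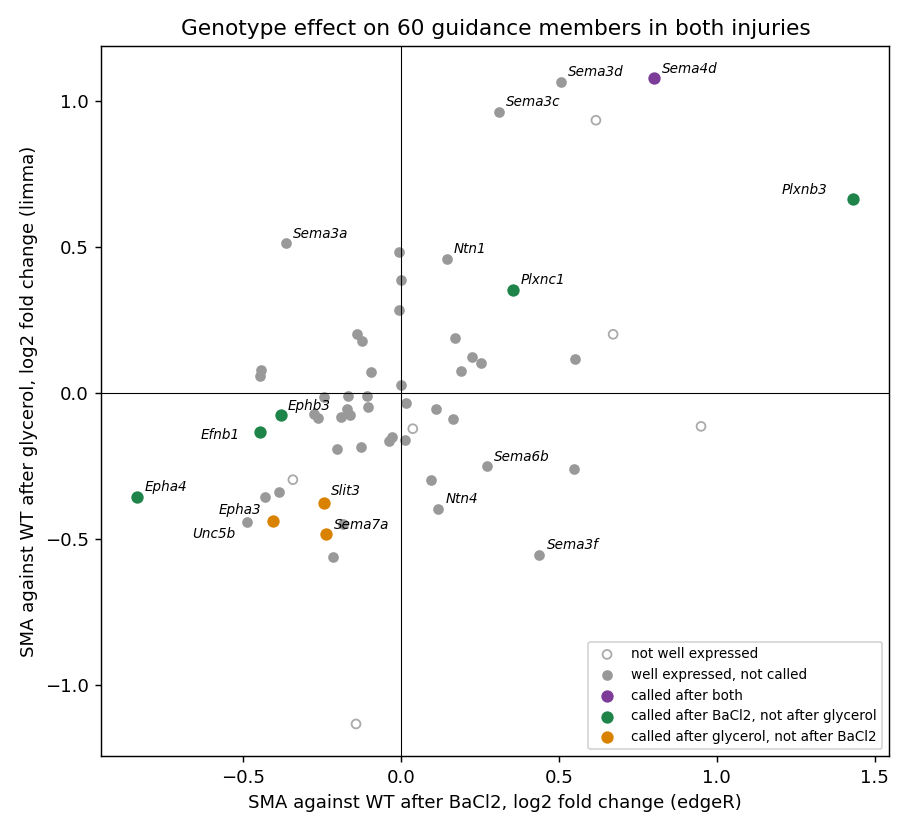
Log2 fold change of SMA against WT for the 60 members tested in both tables, after BaCl2 (edgeR, horizontal) and after glycerol (limma on log2(value + 1), vertical), coloured by the test passed. Sema4d passed after both, and Sema6b, Sema3f and Ntn4 lie at the lower right, higher after BaCl2 and lower after glycerol.

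The genotype effect differed between the BaCl2 and glycerol tables for 3 members, all ligands, and in each the SMA effect was lower after glycerol than after BaCl2. The difference of the log2 fold changes was tested with a z test adjusted over all genes. It called 3 of 60 members, a smaller share than the 10.5% of all 13960 genes. Each injury had its own table, kind of values and test, so a difference between injuries cannot be told apart from one between the tables. Unadjusted, 11 of 60 members had a p under 0.05, beside 24.6% of all genes. The z test called more genes than it should on simulated data, with 18% of its calls false, and with a t distribution in its place Sema6b and Sema3f passed and Ntn4 did not.

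Sema6b, a transmembrane semaphorin that binds A-class plexins, had 33.7, 31.8 and 30.3 CPM in SMA libraries against 27.3, 26.3 and 25.6 CPM in WT libraries after BaCl2. After glycerol it had 1043, 976.6, 1043 and 1029 normalized counts in SMA libraries against 1243, 1187, 1137 and 1315 in WT libraries. Every SMA library was above every WT library after BaCl2, and every SMA library was below every WT library after glycerol. Neither effect passed alone (0.27 ± 0.07, edgeR adjusted p = 0.0501, and -0.25 ± 0.07, limma adjusted p = 0.0702), while the difference between them was -0.53 ± 0.09 (SE; z test adjusted p = 9.65e-06).

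Sema3f, a secreted semaphorin that acts through Nrp2, had 11.6, 15.4 and 14.3 CPM in SMA libraries against 14.2, 7.83 and 8.41 CPM in WT libraries after BaCl2, where the groups overlapped. After glycerol it had 330.4, 483.9, 520.9 and 512.0 normalized counts in SMA libraries against 608.8, 696.7, 552.1 and 852.6 in WT libraries, with no overlap. The difference of the effects was -0.99 ± 0.27 (SE; z test adjusted p = 0.00686). Sema6b and Sema3f passed this test with each of the 14 libraries left out in turn.

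Ntn4, a netrin of basement membranes, had 21.7, 21.0 and 22.9 CPM in SMA libraries against 20.5, 20.2 and 19.7 CPM in WT libraries after BaCl2, and 1195, 1055, 949.3 and 1519 normalized counts in SMA libraries against 1689, 1545, 1185 and 1774 in WT libraries after glycerol. The groups were apart after BaCl2, with SMA higher, and overlapped after glycerol. The difference of the effects was -0.52 ± 0.18 (SE; z test adjusted p = 0.0397), and it passed in 5 of the 14 fits with a library left out. The endothelial marker sum moved with this comparison too, at 211.6 to 296.9 CPM in SMA libraries against 121.1 to 283.1 CPM in WT libraries after BaCl2, and lower in all SMA libraries after glycerol. For glycerol minus BaCl2, 6 of 8 endothelial and 3 of 7 pericyte and smooth muscle markers were called lower, and 3 of 8 FAP markers were called higher (z test). The part of these lists in the 3 differences was not tested.

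After glycerol 2 class 3 semaphorins, Sema3c and Sema3d, were spread widely among the SMA libraries. Sema3c, an attractant and a guide of vessel and heart outflow growth, had 3361, 3052, 5866 and 17580 normalized counts in SMA libraries against 2398, 4151, 2490 and 2961 in WT libraries. Sema3d had 218.5, 225.9, 386.3 and 1831 in SMA libraries against 176.0, 260.9, 221.9 and 177.4 in WT libraries. SMA libraries 1 and 2 lay within the WT range for both genes, library 3 lay above it and library 4 far above it. The log2 differences of 0.96 ± 0.49 for Sema3c (SE; limma adjusted p = 0.273) and 1.07 ± 0.60 for Sema3d (SE; limma adjusted p = 0.313) did not pass.

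Sema3a, which repels motor axons, had 235.1, 268.3, 254.7 and 543.2 normalized counts in SMA libraries against 147.5, 226.5, 202.0 and 310.4 in WT libraries. Sema3e, a ligand of Plxnd1 that was not well expressed, had 38.2, 36.3, 132.5 and 163.1 in SMA libraries against 33.8, 48.6, 33.3 and 39.7 in WT libraries. Sema3a, Sema3c, Sema3d and Sema3e all lie on chromosome 5, and together they summed to 3853, 3583, 6640 and 20120 normalized counts in SMA libraries against 2755, 4687, 2947 and 3488 in WT libraries. Sema3c made up most of that sum, with 5866 in SMA library 3 and 17580 in SMA library 4. Sema3a in SMA library 3 (254.7) lay within the WT range and below SMA library 2. A part of the position on the chromosome was not tested. The netrin Ntn1, on chromosome 11, was also highest in SMA libraries 3 and 4, with 3630, 3617, 7121 and 9194 in SMA libraries against 3394, 4609, 3691 and 4164 in WT libraries. It did not pass (limma adjusted p = 0.371). SMA library 3 also had the highest sum of 7 Schwann cell markers, 3945 normalized counts against 1707 to 2306 in the other SMA libraries and 1425 to 2006 in WT libraries. Of that sum Ngfr made up 1932 in SMA library 3, against 172.4 to 511.1 in the other SMA libraries and 138.9 to 422.6 in WT libraries. The other 6 markers summed to 1521, 1794, 2014 and 1850 in SMA libraries against 1286 to 1664 in WT libraries. Stmn2, the 1 neurone marker in the table, was highest in SMA libraries 3 and 4, with 58.5, 69.9, 390.5 and 178.9 in SMA libraries against 86.8, 125.4, 76.2 and 147.7 in WT libraries. No marker of either list in the table was at 0, and their part in these levels was not tested.

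**Figure D5:**
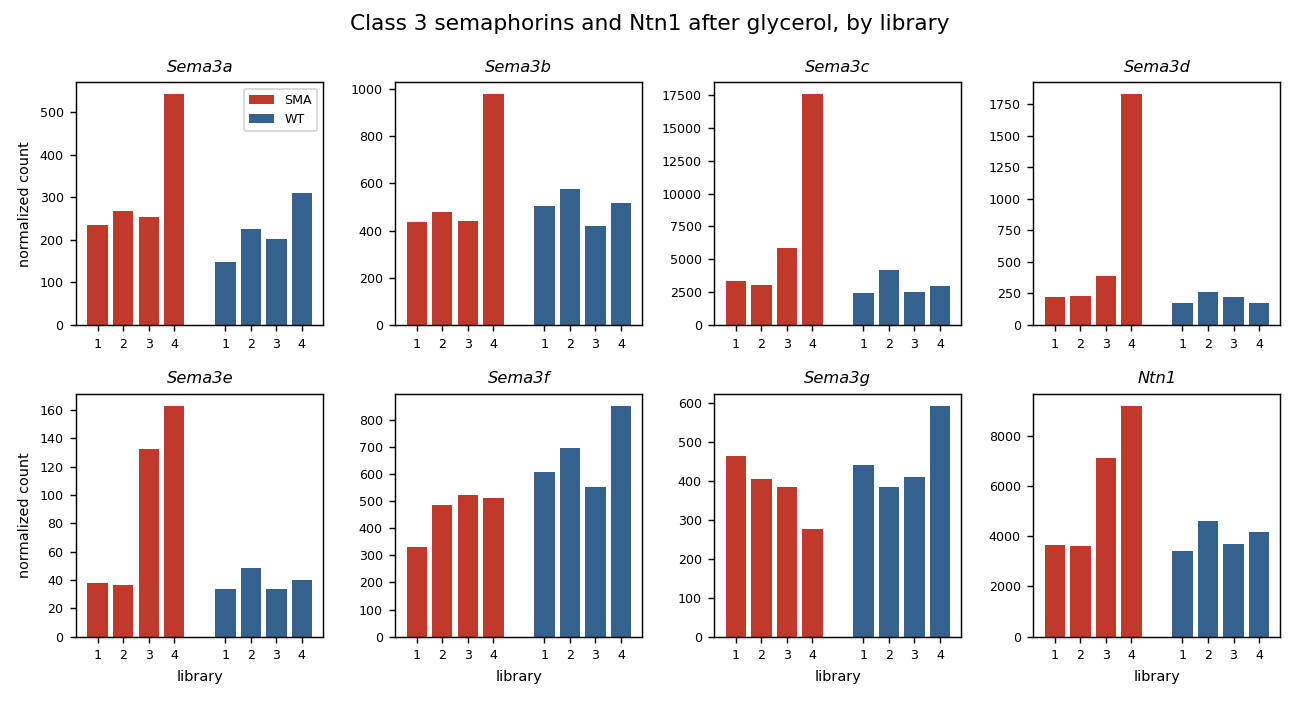
Normalized counts of the 7 class 3 semaphorins and Ntn1 in each glycerol library, with SMA libraries left and WT libraries right and an axis from 0 for each gene. SMA library 4 reaches 17580 for Sema3c and 1831 for Sema3d, while Sema3f is lower in all SMA libraries than in all WT libraries.

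After BaCl2 the class 3 genes lay closer together. Sema3c had 24.6, 34.8 and 20.6 CPM in SMA libraries against 25.2, 20.8 and 18.6 CPM in WT libraries. Sema3d had 4.40, 4.36 and 2.91 CPM in SMA libraries against 3.26, 1.72 and 3.21 CPM in WT libraries. Sema3g, which binds Nrp2, had 11.3, 11.8 and 12.9 CPM in SMA libraries against 11.5, 4.69 and 8.41 CPM in WT libraries. All 3 overlapped between the genotypes and did not pass (edgeR adjusted p = 0.379 for Sema3c, 0.308 for Sema3d and 0.258 for Sema3g). Plxna4, the plexin that serves Sema3a, averaged 4.89 ± 1.24 CPM in SMA and 3.34 ± 1.29 CPM in WT FAPs (SD, n = 3 each; edgeR adjusted p = 0.331).

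The highest plexins and neuropilins did not pass in either table. Plxnb2 averaged 458 ± 4.72 CPM in SMA and 458 ± 21.4 CPM in WT FAPs after BaCl2 (SD, n = 3 each), and 30300 ± 1233 in SMA and 29740 ± 1279 normalized counts in WT libraries after glycerol (SD, n = 4 each). Plxnd1 averaged 246 ± 18.8 CPM in SMA and 264 ± 11.1 CPM in WT FAPs, and 14480 ± 466 normalized counts in SMA and 14990 ± 947 in WT libraries. Nrp2 averaged 191 ± 3.42 CPM in SMA and 189 ± 9.50 CPM in WT FAPs. Nrp1 had 229, 241 and 245 CPM in SMA libraries against 196, 202 and 228 CPM in WT libraries, without overlap, and did not pass (0.19 ± 0.07 on the log2 scale, SE; edgeR adjusted p = 0.160).

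The remaining leading members did not pass in either table. Slit2 averaged 26.7 ± 1.74 CPM in SMA and 29.2 ± 3.02 CPM in WT FAPs, Efnb2, the arterial ephrin, averaged 67.5 ± 3.15 CPM in SMA and 68.9 ± 6.77 CPM in WT FAPs, and its receptor Ephb4, known from veins, averaged 43.7 ± 2.39 CPM in SMA and 49.2 ± 1.30 CPM in WT FAPs (SD, n = 3 each, after BaCl2). Sema4c, another ligand of Plxnb2, averaged 52.2 ± 2.94 CPM in SMA and 59.5 ± 4.76 CPM in WT FAPs. After glycerol the netrin receptor Unc5a did not overlap, with 419.3, 526.8, 446.0 and 389.0 normalized counts in SMA libraries against 639.8, 623.3, 564.5 and 592.1 in WT libraries (limma adjusted p = 0.0562). Sema6a, a transmembrane partner of A-class plexins, did likewise, with 651.6, 561.1, 477.9 and 677.0 in SMA libraries against 976.2, 737.5, 837.8 and 936.7 in WT libraries (limma adjusted p = 0.0560).

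Among the other genes of the same pathways, listed as 11 further ligands and receptors and 38 genes that act inside the cell, 47 were tested in each table. After BaCl2 0 were higher and 5 were lower in SMA libraries (edgeR), against 2.73% and 1.56% of all genes, with 15 at an unadjusted p under 0.05, beside 19.3% of all genes. The 5 became 1 with SMA library 2 or WT library 3 left out, 2 with WT library 2 left out and 9 with SMA library 3 left out. Draxin, a secreted partner of netrin and Dcc, fell by 0.99 on the log2 scale, to 15.5 ± 1.97 CPM in SMA libraries against 30.9 ± 4.27 CPM in WT libraries (SD, n = 3 each; edgeR adjusted p = 0.00471). Flrt2, a ligand of Unc5 receptors, averaged 77.7 ± 3.02 CPM in SMA and 101 ± 7.60 CPM in WT FAPs (edgeR adjusted p = 0.0163), and Rgma, a ligand of neogenin, averaged 23.7 ± 2.10 CPM in SMA and 30.4 ± 1.34 CPM in WT FAPs (adjusted p = 0.0325). The adaptors Nck1 and Nck2, which link Eph and other receptors to actin, fell by 0.42 and 0.41 on the log2 scale (edgeR adjusted p = 0.00734 and 0.0195).

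After glycerol 0 of these genes were higher and 1 was lower (limma), against 1.70% and 1.17% of all genes, with 14 at an unadjusted p under 0.05, beside 23.3% of all genes. The count was 7 without SMA library 3 and 0 with any of the other 7 libraries left out. That gene was Robo4, the Robo of endothelial cells, at 204 ± 39.7 normalized counts in SMA and 395.5 ± 69.7 in WT libraries (SD, n = 4 each; limma adjusted p = 0.0353). The median log2 fold change of the genes inside the cell was -0.005 after both injuries. For the difference between injuries 5 of 47 were higher and 4 were lower (z test), against 10.5% of all genes in either direction, and with a t distribution 2 were higher and 1 was lower. By the z test they included Draxin (1.41; adjusted p = 7.20e-05) and Nck2 (0.42; adjusted p = 0.00544), and Robo4 (-1.60; adjusted p = 0.000282) and Mical2 (-0.66; adjusted p = 0.00614). Mical2 encodes an actin-oxidizing enzyme of a family that acts after plexins. Dcc, the attractive netrin receptor, was at 0.0131 CPM in SMA and 0.0148 CPM in WT FAPs after BaCl2, whereas its relative Neo1 averaged 174 ± 39.8 CPM in SMA and 214 ± 8.59 CPM in WT FAPs (SD, n = 3 each). Of 5 neurone markers Chat was at 0 in every BaCl2 library.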

How the data were processed

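The RNA came from FAPs sorted from TA muscle, and reads were not analysed here. The submitters' processing notes list DESeq2, featureCounts, Salmon and fastp, with no version or order. The build, the annotation and the aligner were not given in the sources used here. After BaCl2 the deposited values are raw read counts per gene. After glycerol they are a normalized signal, the authors' normalized counts, so the count test planned for that table was replaced by limma, and depth there is unknown. The authors also deposited log2 fold changes and p-values, which are quoted only as theirs. Another 6 columns of z-scores were not used.

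Counts were fitted with edgeR 4.0.16 (R 4.3.3; TMM factors 0.953 to 1.05, filterByExpr, quasi-likelihood F test). Glycerol values were fitted as log2(value + 1) with limma 3.58.1 and a mean-variance trend, a scale that understates the change of low genes. The difference between injuries was a z test on both fits. P-values were adjusted over all genes tested by Benjamini and Hochberg, with a threshold of 0.05. No libraries were identical. CPM are TMM-scaled counts per M (mega), and in the shallowest library, of 97.7 M counts, a gene at 1 CPM rests on about 97.7 counts. Lengths are exon unions of GENCODE vM21, matched by gene identifier, and promoters are from RefSeq (GRCm38.p6), matched by symbol. On simulated data 10.9% of edgeR's calls and 4.47% of limma's were false. In that simulation a fixed number of genes was changed, each gene was drawn independently, and the noise was taken from the same kinds of fit. These rates, and the 18% of the z test, hold for that setting and are not error rates of the calls in these data. Alternatives included DESeq2 1.42.0, other filters and scalings, and leaving out each library.

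Members described in full passed a test, stood apart in the same direction after both injuries, led their family per kilobase after BaCl2 (2 a family), or were among the 4 largest other changes of a table. The members, lists and tests were chosen with earlier results of these data known. Some listed genes are named to show what a list holds.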

Additional observations from a re-analysis of the deposited data

Results flagged for a closer look

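Among groups of 4 glycerol libraries, 6 of the 62 groups of the members described in full held a library far from the other 3. Some of these members were chosen for large changes, which a single library can give. Over all 61 members listed after glycerol, 11 of 122 groups held one, where chance flags about 5% of independent groups, and these groups share libraries. SMA library 4 was high for Sema3a (543.2 normalized counts, next 268.3), Sema3d (1831, next 386.3) and Plxnb3 (87.84, next 47.12), and low for Efnb1 (3703, next 4739). SMA library 2 was high for Nrp1 (16730, next 15570), and WT library 4 was high for Robo1 (9070, next 8299).

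By the z test the effect of genotype differed between the BaCl2 and glycerol tables for 3 of 60 members, all ligands, against 10.5% of 13960 genes. Injury and table cannot be told apart in this test. The log2 difference, glycerol minus BaCl2, was -0.994 for Sema3f, -0.526 for Sema6b and -0.517 for Ntn4 (z test adjusted p = 0.00686, 9.65e-06 and 0.0397). On simulated data, where each gene was drawn independently, 18% of the calls of this test were false. Ntn4 did not pass with a t distribution, and it passed in 5 of the 14 fits with a library left out.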

How the results depend on the processing

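Sema4d after BaCl2 and the differences of Sema6b and Sema3f held with each library left out; the glycerol calls did not. After BaCl2, leaving out each library gave 41 to 1577 genes, 1 to 11 members and 1 to 9 signalling genes, and after glycerol 0 to 1645 genes, 0 to 7 members and 0 to 7 signalling genes. Depth limits members such as Plxnb3, under 1 CPM, and the cause of these changes was not tested.

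After BaCl2 the DESeq2 Wald test called 1698 genes and 11 signalling genes, and no filter on low counts gave 1867 genes, 14 members and 13 signalling genes. Without SMA libraries 1 and 2, which leaves 1 SMA library taken to vary like the WT libraries, these were 108, 1 and 1. After glycerol TMM factors on the values left 2 members (1 higher, 1 lower), and limma without the trend called 2 genes, 0 members and 0 signalling genes. Without SMA libraries 3 and 4, an alternative added after seeing the data, it called 868 genes, 2 members (Plxnc1 and Sema4d) and 4 signalling genes. For the difference, the t distribution, also added later, gave 530 genes and 3 signalling genes. Leaving out SMA glycerol libraries 3 and 4 gave 7 members, and leaving out SMA BaCl2 libraries 1 and 2 gave 586 genes and 4 signalling genes. Where a count of members stands here without one over all genes, no share can be read from it.

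No label says that the replicate numbers pair the samples, and the main fits did not pair them. Deviations of same-numbered libraries from their group means correlated at 0.0754, -0.167 and 0.114 after BaCl2 and at 0.148, -0.0874, -0.00824 and 0.0660 after glycerol. Not every library correlated best with its own number. Deviations from means of 3 or 4 libraries cannot decide whether the numbers pair the samples. With the replicate block 10 members were called after BaCl2, 257 genes, 3 members and 0 signalling genes after glycerol, and 8 members for the difference. The counts over all genes that belong to the 10 and the 8 members are not given here, so no share can be read from them.

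Some log2 fold changes, none of which had passed, changed sign. Plxnb2 after BaCl2 was 0.00551 with RLE factors, 0.00483 with DESeq2, 0.00548 with no filter, 0.00605 at a mean of at least 1 CPM, 0.000986 with the replicate block, 0.0101 without SMA libraries 1 and 2, and -0.039 to 0.0259 with a library left out. Without SMA libraries 1 and 2 after BaCl2, Sema3c was -0.0681, Sema7a 0.117, Nrp2 -0.0144, Ntn1 -0.085 and Efnb2 0.0453. Without SMA libraries 3 and 4 after glycerol, Ntn1 was -0.12 and Ephb3 0.0277, and the differences of Plxnc1 and Epha3 were 0.243 and 0.11. With limma on both tables the differences of Plxnb3 and Plxnc1 were 0.1 and 0.0151. With a library left out, Nrp2 and Efnb2 after BaCl2 ran from -0.00968 to 0.0571 and from -0.0838 to 0.0519, Plxna4, Robo2 and Sema4c after glycerol from -0.039 to 0.348, from -0.189 to 0.321 and from -0.163 to 0.0224, and the differences of Plxnc1 and Epha3 from -0.141 to 0.202 and from -0.146 to 0.034.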

Other observations

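Ligands and their receptors can be read side by side as a share of the WT mean. After glycerol Sema7a was lower in every SMA library (72.0% of the WT mean) while its receptor Plxnc1 averaged 131% of the WT mean with overlapping libraries. After BaCl2 the ephrin Efnb1 averaged 73.4% of the WT mean and the receptors Ephb3 and Epha4 averaged 76.8% and 56.0%, while after glycerol these 3 were at 91.0%, 94.7% and 80.5% and none passed (limma).

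Of the 60 members tested in both tables, 13 had a positive and 26 a negative log2 fold change after both injuries, and 21 had opposite signs. The tables share no library.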
